A study of Mus musculus with 30 samples.

Results

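Brain-derived neurotrophic factor (BDNF) was given for 48 h to wild-type primary cultures of mouse telencephalon, the embryonic forebrain region that forms cortex and basal ganglia. The comparison holds the 5 arrays titled as wild-type 48 h and the 5 arrays titled as wild-type basal, chosen by those titles, which makes 10 of the 30 arrays of the series. The cells were a pool of the telencephalon of 4 control (Xbp1 +/+) embryos of embryonic day 12.5, divided over 15 dishes and grown in serum-free medium. The 48 h dishes received 100 ng/ml BDNF on day 3 in vitro and were lysed on day 5, whereas the basal dishes received none and were lysed on day 4. BDNF and 1 further day in culture therefore cannot be told apart at 48 h. Each array read RNA of 1 dish, so p-values reflect how dishes from 1 pool varied, a spread that may be technical. Wild-type dishes with 24 h of BDNF, lysed on day 4, and Xbp1 -/- dishes (a further pool, of 6 embryos that lack the transcription factor XBP1) under the same treatment served for comparison, with 5 arrays in each group.

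BDNF is a secreted growth factor of the neurotrophin family that binds the receptor tyrosine kinase TrkB on neurons. TrkB activates the RAS and ERK kinase cascade, phosphatidylinositol 3-kinase and phospholipase C gamma, and through them transcription factors such as CREB. In forebrain neurons BDNF is known for promoting dendrite growth, the maturation of GABAergic neurons and the synthesis of neuropeptides such as neuropeptide Y.

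Each signal is given on the log2 scale with the array's median at 0, and changes are log2 differences, 48 h minus basal, ± SE. "Rose" and "fell" mean an adjusted p under 0.05 over 7436 tested genes. Several neuronal genes were bright. The growth cone gene Gap43 stood at percentile 99.4 of all genes at 48 h and the tubulin gene Tubb3 at 94.0. In basal dishes they stood at 99.2 and 94.6. Other neuronal genes were dimmer, with Syt1, Map2 and Nefm at 46.6, 61.6 and 67.4 in basal dishes. Among progenitor genes, Fabp7, Vim and Sox2 stood at 99.1, 98.3 and 91.4 there. Hes5, Nes and Pax6 stood at 66.0, 56.5 and 55.5. The defining astrocyte genes Gfap and Aqp4, the microglial Aif1, Cx3cr1 and P2ry12 and the endothelial Pecam1 and Cldn5 lay below the filter on dim genes. The filter used the mean over all 30 arrays, and 109 tested genes, 41 of them called, had a mean over the 10 wild-type arrays compared here below its level of -0.40. Of the genes named here these were Avp, Crabp2, Egfl6, Eln, Hba-x, Hbb-bh1, Kcne4, Ms4a6b, Msx2 and Ntn1, whose changes include signal near background and are given without a fold. Before scaling, the median signal was 106 to 128 in 48 h dishes and 85.2 to 103 in basal dishes. The Gapdh 3'/5' ratio, a measure of RNA integrity, was 2.40 to 2.62 in 48 h dishes and 2.72 to 2.94 in basal dishes, without overlap, and its part in the results was not tested beyond the fit that held it as a covariate. On the first principal component, which carried 51.4% of the variance, 48 h dishes 1 and 2 scored 5.20 and 9.36, 48 h dishes 3, 4 and 5 scored 17.1, 15.1 and 19.9, and basal dishes lay between -17.6 and -10.6. Dishes 1 and 2 at 48 h thus lay nearer to the basal dishes, and most list counts are given with each set of 48 h dishes alone as well. Brackets marked "as deposited" hold the counts from the values before median scaling. Fewer dishes can lower a count by construction.

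Of the tested genes 2693 (36.2%) changed, of which 1524 (20.5%) rose and 1169 (15.7%) fell, with a median change of 0.02 over all tested genes. The rises reached further than the falls, with 70 genes up and 7 genes down at least 2-fold. The 48 h and basal dishes did not overlap in 19.7% of all tested genes, and in 12 of the 13 tested neuropeptide genes. The 25 largest rises and 20 largest falls were taken from called genes without overlap. Its absence in those genes was therefore set by the choice. The count of changed genes was 1014 with 48 h dishes 1 and 2 alone and 2956 with dishes 3 to 5 alone. It was 1478 with the Gapdh ratio as a covariate. The share of called genes that rose was 56.6%, a share that became 42.8% under quantile normalization, 39.9% when arrays were scaled on their 75th percentile and 97.9% with the values as deposited, which keep a shift of 0.335 in the median of all genes. In RNA of whole dishes, fewer cells of a type and less RNA per cell cannot be told apart.

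Genes for neuropeptides led the rises. Of 13 tested neuropeptide precursor genes, 12 rose and 1 fell, with a median change of 1.30. The rises numbered 12 with either set of 48 h dishes alone. Npy, which encodes the interneuron peptide neuropeptide Y, read 4.08, 4.25, 3.99, 4.11 and 4.35 in the 48 h dishes, against 1.11, 0.90, 0.94, 1.04 and 0.91 in the basal dishes. All 5 of the 48 h dishes stood far above every basal dish, and the change of 3.18 ± 0.10 (9.06-fold, adjusted p = 8.34e-22) was the largest measured among the tested genes. Pnoc, the precursor of nociceptin, an opioid-like peptide, read 3.06, 3.32, 3.22, 3.42 and 3.50 in the 48 h dishes, against 0.84, 1.47, 1.22, 1.13 and 1.02 in the basal dishes. Its groups did not overlap, and the change was 2.17 ± 0.09 (4.5-fold, adjusted p = 2.06e-18). Cartpt, the precursor of the CART peptides of feeding and reward circuits, read 1.72, 2.02, 1.91, 1.84 and 1.98 in the 48 h dishes, against 0.02, -0.23, 0.14, -0.10 and 0.07 in the basal dishes. Cartpt dishes were tight within each group and changed by 1.91 ± 0.12 (3.77-fold, adjusted p = 4.58e-14).

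Peptides known best from the hypothalamus and from interneurons moved beside these. Avp, the vasopressin precursor, read 0.65, 0.25, 0.30, 0.45 and 0.34 in the 48 h dishes, against -1.52, -1.03, -1.57, -1.25 and -1.22 in the basal dishes, which put its basal dishes below the array median and its 48 h dishes above it, a change of 1.72 ± 0.19 (adjusted p = 1.30e-08). Nts, the neurotensin precursor, read 3.63, 3.85, 3.66, 3.83 and 3.93 in the 48 h dishes, against 2.10, 2.35, 2.21, 2.27 and 2.22 in the basal dishes, again without overlap, and changed by 1.55 ± 0.11 (2.93-fold, adjusted p = 1.31e-12). The other 7 that rose, named to complete the list, were somatostatin (Sst, 1.38 ± 0.08), proenkephalin (Penk, 1.30 ± 0.10), the substance P precursor Tac1 (1.26 ± 0.19), the PACAP precursor Adcyap1 (1.08 ± 0.13), gastrin-releasing peptide (Grp, 0.997 ± 0.17), galanin (Gal, 0.94 ± 0.15) and cholecystokinin (Cck, 0.41 ± 0.11). Oxt, the oxytocin precursor and the chromosomal neighbour of Avp, fell by 0.73 ± 0.18 (adjusted p = 0.0018), a call lost with 48 h dishes 1 and 2 alone and with the Gapdh covariate. In multiples of the array median, the summed signal of the 23 measured precursors was 109 to 133 in 48 h dishes, against 43.6 to 48.4 in basal dishes.

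Genes of the dense-core granule, the vesicle in which peptides are packed and cut, also rose. Of 12 tested granin and prohormone processing genes, 9 rose and 1 fell, with a median of 0.60 (6 rises with 48 h dishes 1 and 2 alone, 9 with dishes 3 to 5 alone). Scg2, a granin that is itself a peptide precursor, read 6.03, 6.08, 6.26, 6.22 and 6.36 in the 48 h dishes, against 4.19, 4.48, 4.71, 4.44 and 4.34 in the basal dishes, with every 48 h dish above every basal dish and a change of 1.76 ± 0.08 (3.38-fold, adjusted p = 1.77e-17). Qpct, the glutaminyl cyclase that caps peptide ends, read 0.43, 0.67, 0.87, 0.71 and 1.23 in the 48 h dishes, against -0.86, -0.66, -0.55, -0.27 and -0.93 in the basal dishes, also without overlap, and changed by 1.44 ± 0.14 (2.71-fold, adjusted p = 1.93e-09). The granins Chga and Chgb rose by 0.81 ± 0.10 and 0.81 ± 0.07, and Scg5 and Scg3, which assist granule sorting, by 0.73 ± 0.12 and 0.46 ± 0.07. The convertase gene Pcsk1 rose by 0.38 ± 0.12 and the amidating enzyme gene Pam by 0.78 ± 0.24. Carboxypeptidase E (Cpe) did not pass, at -0.01 ± 0.05, and Cadps2, which primes granules for release, fell by 0.40 ± 0.08. Outside the list, Ptprn, a membrane protein of dense-core granules, rose by 1.66 ± 0.11 (3.17-fold, adjusted p = 4.30e-13).

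**Figure D1:**
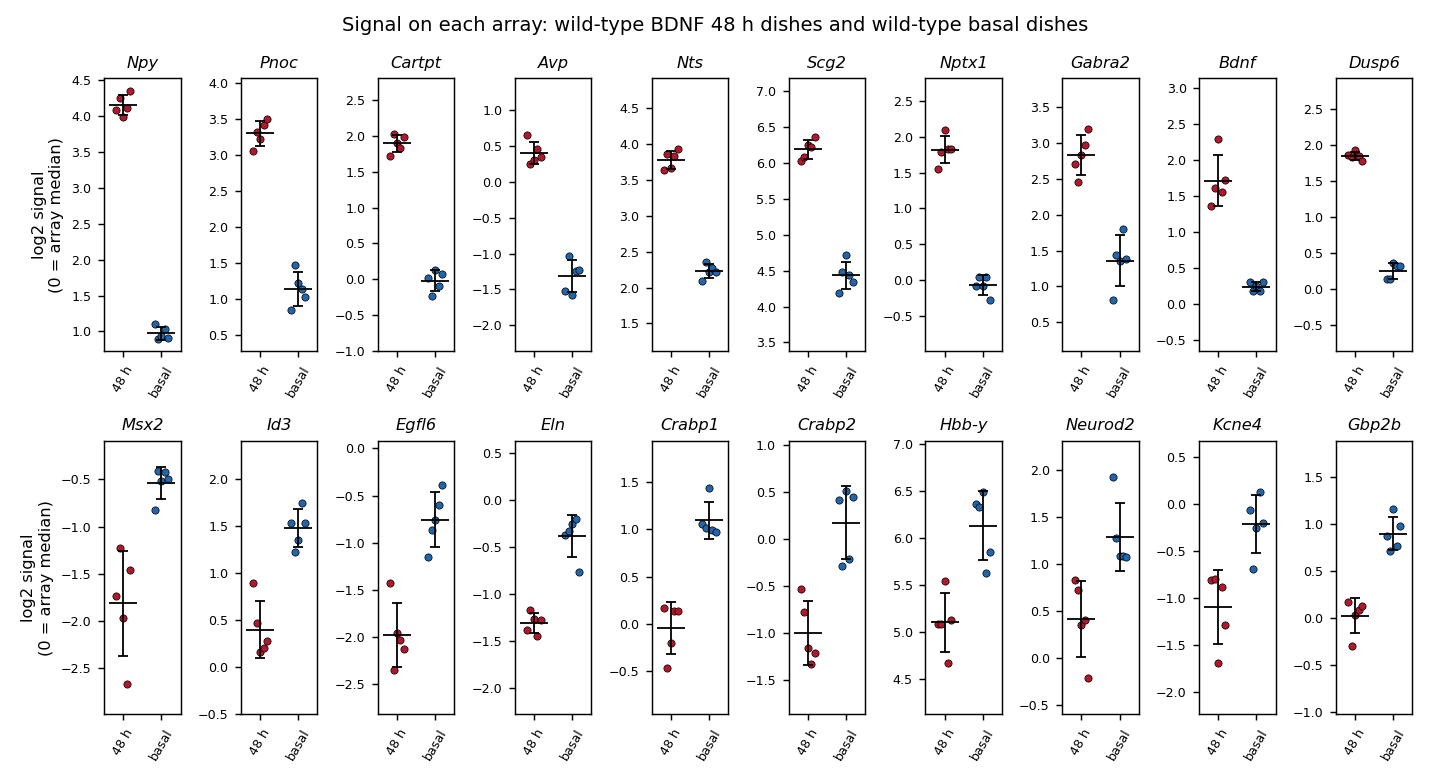
Log2 signal relative to the array median on each of the 5 wild-type BDNF 48 h arrays (red, left) and the 5 wild-type basal arrays (blue, right) for 10 genes that rose (upper row) and 10 that fell (lower row); lines and bars are mean and SD, all panels of a row span the same range. The 20 genes were chosen among those whose 48 h and basal dishes do not overlap. Bdnf and Msx2 spread more among 48 h dishes than among basal dishes.

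The sequences before the start sites of several granule and peptide genes that rose hold the cAMP response element, the site that CREB is known to bind, or its core. Promoters from 250 bases before to 50 after the start, of RefSeq (GRCm38.p6), were searched for the palindrome TGACGTCA and for its core TGACG on either strand, which every full element also contains. The full element stood in 1.79% and the core in 20.81% of all 32851 promoters. Of the 12 neuropeptide genes that rose, 9 had promoters, 10 in all, of which 2 held the full element and 8 the core. Of the 9 granin and prohormone processing genes that rose, 8 had promoters, 9 in all, of which 3 held the full element and 6 the core. Of the 25 genes with the largest rises, 20 had promoters, 32 in all, of which 2 held the full element and 10 the core. Of the 20 genes with the largest falls, 12 had promoters, 16 in all, of which 0 held the full element and 4 the core (Id3, Kcne4, Msx2 and Neurod2). A match describes these letters and not a bound site, and no test was run. The windows around the matches of 6 genes are shown, with the matched letters in capitals, since these genes rose and differ in how much of the element they hold. Gad2, 1 of the 6, belongs to none of the groups counted above.
Scg2: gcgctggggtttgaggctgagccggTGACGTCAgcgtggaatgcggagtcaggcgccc
Cartpt: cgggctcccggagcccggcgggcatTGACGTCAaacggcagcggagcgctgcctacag
Chga: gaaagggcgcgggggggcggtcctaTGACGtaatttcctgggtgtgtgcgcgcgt
Bdnf: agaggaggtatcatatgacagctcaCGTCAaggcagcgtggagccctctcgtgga
Tacr3: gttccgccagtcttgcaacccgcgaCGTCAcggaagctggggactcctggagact
Gad2: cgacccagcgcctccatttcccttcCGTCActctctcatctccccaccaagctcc
The full element of Scg2 began 68 bases before the start site (chr1:79440062-79440119, minus strand) and that of Cartpt 112 bases before it (chr13:99900763-99900820, minus strand). Chga held the core 44 bases before the start (chr12:102554872-102554926, plus strand). In Bdnf the core on the opposite strand stood 35 bases before the start of 1 of its promoters (chr2:109692376-109692430, plus strand), in Tacr3 58 bases before it (chr3:134828924-134828978, plus strand) and in Gad2 33 bases before it (chr2:22622269-22622323, plus strand). Npy, which rose most, was not among the genes with a match, and a match could be found only in genes that had promoters here.

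Most tested genes of GABA synthesis and GABA reception rose. Of 5 tested genes of GABA synthesis, transport and breakdown 4 rose (2 rises with 48 h dishes 1 and 2 alone, 5 with dishes 3 to 5 alone), with a median of 0.60. With probe sets averaged, 2 of the 5 rose and the median was 0.157. Abat, the breakdown gene, rose by 0.60 but was at 0.088 and not called with probe sets averaged. Its dimmer probe set, near background, was at -0.43 and did not pass. Gad2, which encodes the glutamate decarboxylase of nerve terminals, read 1.78, 1.94, 1.59, 1.57 and 1.78 in the 48 h dishes, against 0.72, 0.19, 0.30, 0.45 and 0.43 in the basal dishes. Gad2 groups did not overlap, and the change was 1.31 ± 0.15 (2.48-fold, adjusted p = 4.58e-08). The other decarboxylase gene, Gad1, rose by 0.76 ± 0.07 (1.69-fold, adjusted p = 1.30e-09), and the vesicular GABA transporter gene Slc32a1 by 0.31 ± 0.11 (adjusted p = 0.0231). Of the GABA-A and glycine receptor list 5 of 5 rose (3 rises with 48 h dishes 1 and 2 alone, 4 with dishes 3 to 5 alone), and leaving out 48 h dish 2, 3, 4 or 5 or basal dish 1 left 3, as did the Gapdh covariate. Gabra2, an alpha subunit of the GABA-A receptor, read 2.70, 2.46, 2.83, 2.97 and 3.19 in the 48 h dishes, against 0.81, 1.44, 1.36, 1.80 and 1.39 in the basal dishes. Basal dish 1 was the lowest of its group, and the groups did not overlap, with a change of 1.47 ± 0.17 (2.77-fold, adjusted p = 4.13e-08). Gabrg1 rose by 0.72 ± 0.13 and the glycine receptor beta subunit Glrb by 0.65 ± 0.10.

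The transcription factors that specify GABAergic neurons did not move the same way. Of 11 tested factors 0 rose and 6 fell (6 falls with 48 h dishes 1 and 2 alone, 5 with dishes 3 to 5 alone, 1 with 1 rise as deposited). The median of -0.30 became 0.014 with the values as deposited. Ebf1, a factor of striatal neurons, fell by 0.77 ± 0.15, the LIM homeobox gene Isl1 by 0.51 ± 0.10 and Meis2 by 0.41 ± 0.07, whereas Dlx1, Dlx2 and Dlx5, the core homeobox genes of this lineage, did not pass, Dlx1 and Dlx5 being at -0.21 and -0.13. Among 5 tested neuronal calcium-binding proteins, not all of them interneuron markers, 1 rose and 3 fell (0 falls with 48 h dishes 1 and 2 alone, 2 with dishes 3 to 5 alone, 0 with 1 rise as deposited). The falls included the calcium sensor genes Hpca (-0.46) and Ncald (-0.31). The Hpca call was lost without 48 h dish 2, 3 or 5, among other settings. Calb1 (calbindin) rose by 1.16 ± 0.09 (2.23-fold, adjusted p = 1.58e-11) and Calb2 (calretinin) did not pass, at -0.14 ± 0.12.

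Some genes of glutamatergic transmission rose, as did the 3 tested pentraxin and C1q-like synaptic organizers, though the call of Cbln1 was not stable. Of 6 tested glutamate transporters and receptors 3 rose and 0 fell (2 rises with 48 h dishes 1 and 2 alone, 3 with dishes 3 to 5 alone). Slc17a6, the vesicular glutamate transporter VGLUT2, rose by 1.04 ± 0.10 (2.05-fold, adjusted p = 4.67e-10) and the AMPA receptor subunit gene Gria2 by 0.71 ± 0.08 (1.64-fold, adjusted p = 2.46e-08). Nptx1, a secreted pentraxin that gathers AMPA receptors, read 1.56, 1.79, 2.10, 1.83 and 1.83 in the 48 h dishes, against -0.08, 0.05, -0.08, 0.05 and -0.28 in the basal dishes, with all 48 h dishes high and a change of 1.89 ± 0.11 (3.7-fold, adjusted p = 1.44e-14). C1ql3, a C1q-like ligand made by excitatory neurons, rose by 1.31 ± 0.12 (2.47-fold, adjusted p = 2.57e-10), and Cbln1, a cerebellin of the same superfamily, by 0.35 ± 0.12. The Cbln1 call was lost under quantile and 75th percentile scaling, with the Gapdh covariate and without basal dish 1, 4 or 5, among other settings. Basal dish 2 read 3.87 for Cbln1, above every 48 h dish. The dimmer Cbln1 probe sets were at 0.76 and -0.004. The dimmer Nptx1 probe set was at 0.13 and did not pass. The median of these 3 organizers was 1.31 (2 rises with 48 h dishes 1 and 2 alone, 3 with dishes 3 to 5 alone). Among cortical projection neuron factors 0 of 14 rose and 8 fell (4 falls with 48 h dishes 1 and 2 alone, 6 with dishes 3 to 5 alone, 0 with 1 rise as deposited). The median of -0.27 became 0.039 with the values as deposited. Neurog2 and Eomes, factors of dividing cortical precursors, fell by 0.63 ± 0.12 and 0.61 ± 0.12, both calls lost with the values as deposited, and Tbr1, of early-born cortical neurons, did not pass at 0.41 ± 0.17.

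Presynaptic genes rose or did not pass, and cytoskeletal genes moved in both directions. Of 22 synaptic vesicle and exocytosis genes 14 rose and 0 fell (7 rises with 48 h dishes 1 and 2 alone, 14 with dishes 3 to 5 alone), with a median of 0.28. Rab3c, a GTPase of secretory vesicles, rose by 1.35 ± 0.11 (2.55-fold, adjusted p = 1.31e-11), the synaptotagmin Syt4 by 1.01 ± 0.09 (2.02-fold, adjusted p = 1.36e-10), the SNARE gene Snap25 by 0.82 ± 0.08 and synaptophysin (Syp) by 0.73 ± 0.08. Stx1a, Rab3a and Amph, of the same machinery, did not pass, at -0.07, -0.03 and -0.04. Of 18 neuronal cytoskeleton genes 8 rose and 3 fell (7 up and 3 down with 48 h dishes 1 and 2 alone, 8 and 3 with dishes 3 to 5 alone, 13 and 0 as deposited). The medium, light and heavy neurofilament chains rose, Nefm by 1.41 ± 0.10 (2.65-fold, adjusted p = 1.27e-12), Nefl by 1.15 ± 0.10 and Nefh by 0.84 ± 0.17. Nefm read 3.03, 3.10, 3.39, 3.34 and 3.57 in the 48 h dishes, against 2.00, 1.91, 1.89, 1.98 and 1.61 in the basal dishes, with basal dish 5 below its group and no overlap. The members that fell were genes of young neurons, doublecortin (Dcx, -0.24 ± 0.05), stathmin (Stmn1, -0.24 ± 0.06) and alpha-internexin (Ina, -0.34 ± 0.06), itself a further neurofilament subunit. Eno2, the neuronal enolase, rose by 1.37 ± 0.07 (2.59-fold, adjusted p = 8.20e-16). Among 18 voltage-gated ion channel genes 7 rose and 0 fell (3 rises with 48 h dishes 1 and 2 alone, 10 with dishes 3 to 5 alone). They were led by the potassium channel Kcna1 (0.83 ± 0.13), the channel-interacting protein Kcnip1 (0.81 ± 0.10) and the sodium channel Scn8a (0.65 ± 0.12). Icam5, an adhesion protein of telencephalic dendrites, rose by 1.44 ± 0.27 (2.71-fold, adjusted p = 0.000126), and its basal dish 4 read -2.24 against -0.47 to 0.18 in the other basal dishes.

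Bdnf itself rose. It read 1.36, 1.62, 2.30, 1.56 and 1.72 in the 48 h dishes, against 0.30, 0.18, 0.24, 0.18 and 0.30 in the basal dishes, so all 48 h dishes were above the basal dishes and dish 3 was the highest. The change was 1.47 ± 0.14 (2.78-fold, adjusted p = 4.97e-10), and a further Bdnf probe set also rose. The gene of its receptor TrkB, Ntrk2, did not pass, at -0.10 ± 0.08 (adjusted p = 0.34), nor did Ngfr, the p75 receptor gene (-0.18 ± 0.18). Of 9 tested feedback inhibitors and targets of the ERK cascade 5 rose and 0 fell (4 rises with 48 h dishes 1 and 2 alone, 6 with dishes 3 to 5 alone). Dusp6, the phosphatase that inactivates ERK, read 1.87, 1.84, 1.93, 1.85 and 1.78 in the 48 h dishes, against 0.13, 0.14, 0.36, 0.32 and 0.32 in the basal dishes. Its 48 h dishes had the narrowest spread among the genes given dish by dish here, and it changed by 1.60 ± 0.08 (3.03-fold, adjusted p = 1.68e-16). The inhibitor Spry2 rose by 1.26 ± 0.09 (2.39-fold, adjusted p = 6.62e-13) and Phlda1 by 0.61 ± 0.08. Of 10 immediate-early genes, which respond to stimulation within the first hours, 3 rose and 0 fell with either set of 48 h dishes. Fos read 4.38, 4.45, 4.66, 4.66 and 4.72 in the 48 h dishes, against 3.34, 3.15, 3.47, 3.26 and 3.26 in the basal dishes, without overlap, and changed by 1.28 ± 0.08 (2.42-fold, adjusted p = 3.30e-14). Egr1 rose by 1.03 ± 0.09 (2.05-fold, adjusted p = 3.39e-11) and Ier2 by 0.57 ± 0.09 (1.48-fold, adjusted p = 1.55e-05), whereas Jun and Nr4a1 were at 0.03 ± 0.07 and -0.06 ± 0.10.

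Signalling genes and enzymes filled most other places among the 25 largest rises. Sema3e, a repulsive axon guidance cue, rose by 2.09 ± 0.16 (4.26-fold, adjusted p = 4.94e-12) in a list of 22 guidance genes of which 5 rose and 9 fell (4 up and 5 down with 48 h dishes 1 and 2 alone, 4 and 6 with dishes 3 to 5 alone, 9 and 0 as deposited). The guidance receptors Nrp1 and Epha4 fell by 0.43 ± 0.08 and 0.48 ± 0.10, while Plxna2 and Unc5b rose by 0.59 ± 0.11 and 0.41 ± 0.10. Nell2, a neuronal secreted glycoprotein, and Pcdh20, a protocadherin, rose by 1.63 ± 0.30 and 1.58 ± 0.16. The dimmer Nell2 probe set was at 0.22 and did not pass. Tacr3, the receptor for neurokinin B, rose by 1.48 ± 0.15 (2.79-fold, adjusted p = 1.74e-09), and Pde1a, a calmodulin-dependent phosphodiesterase, by 1.55 ± 0.12 (2.92-fold, adjusted p = 4.67e-12). Sat1, which acetylates polyamines, Ecel1, a membrane metallopeptidase of neurons, and Ercc1, a DNA repair endonuclease subunit, rose by 1.44 ± 0.12, 1.54 ± 0.11 and 1.47 ± 0.09. Cgref1 and 2010204K13Rik rose by 1.46 ± 0.10 and 1.49 ± 0.09. Of 19 antioxidant genes of the NRF2 type 5 rose and 3 fell (5 up and 1 down with 48 h dishes 1 and 2 alone, 5 and 3 with dishes 3 to 5 alone, 10 and 0 as deposited). The risers included Akr1b8, an aldo-keto reductase (1.27 ± 0.09), Srxn1, the sulfiredoxin (1.10 ± 0.12), and Me1, a malic enzyme that makes NADPH (0.89 ± 0.12). The median of that list was 0.02, near that of all tested genes, and turned negative under quantile and 75th percentile scaling. The dimmer Me1 probe set was at 0.28 and did not pass.

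**Figure D2:**
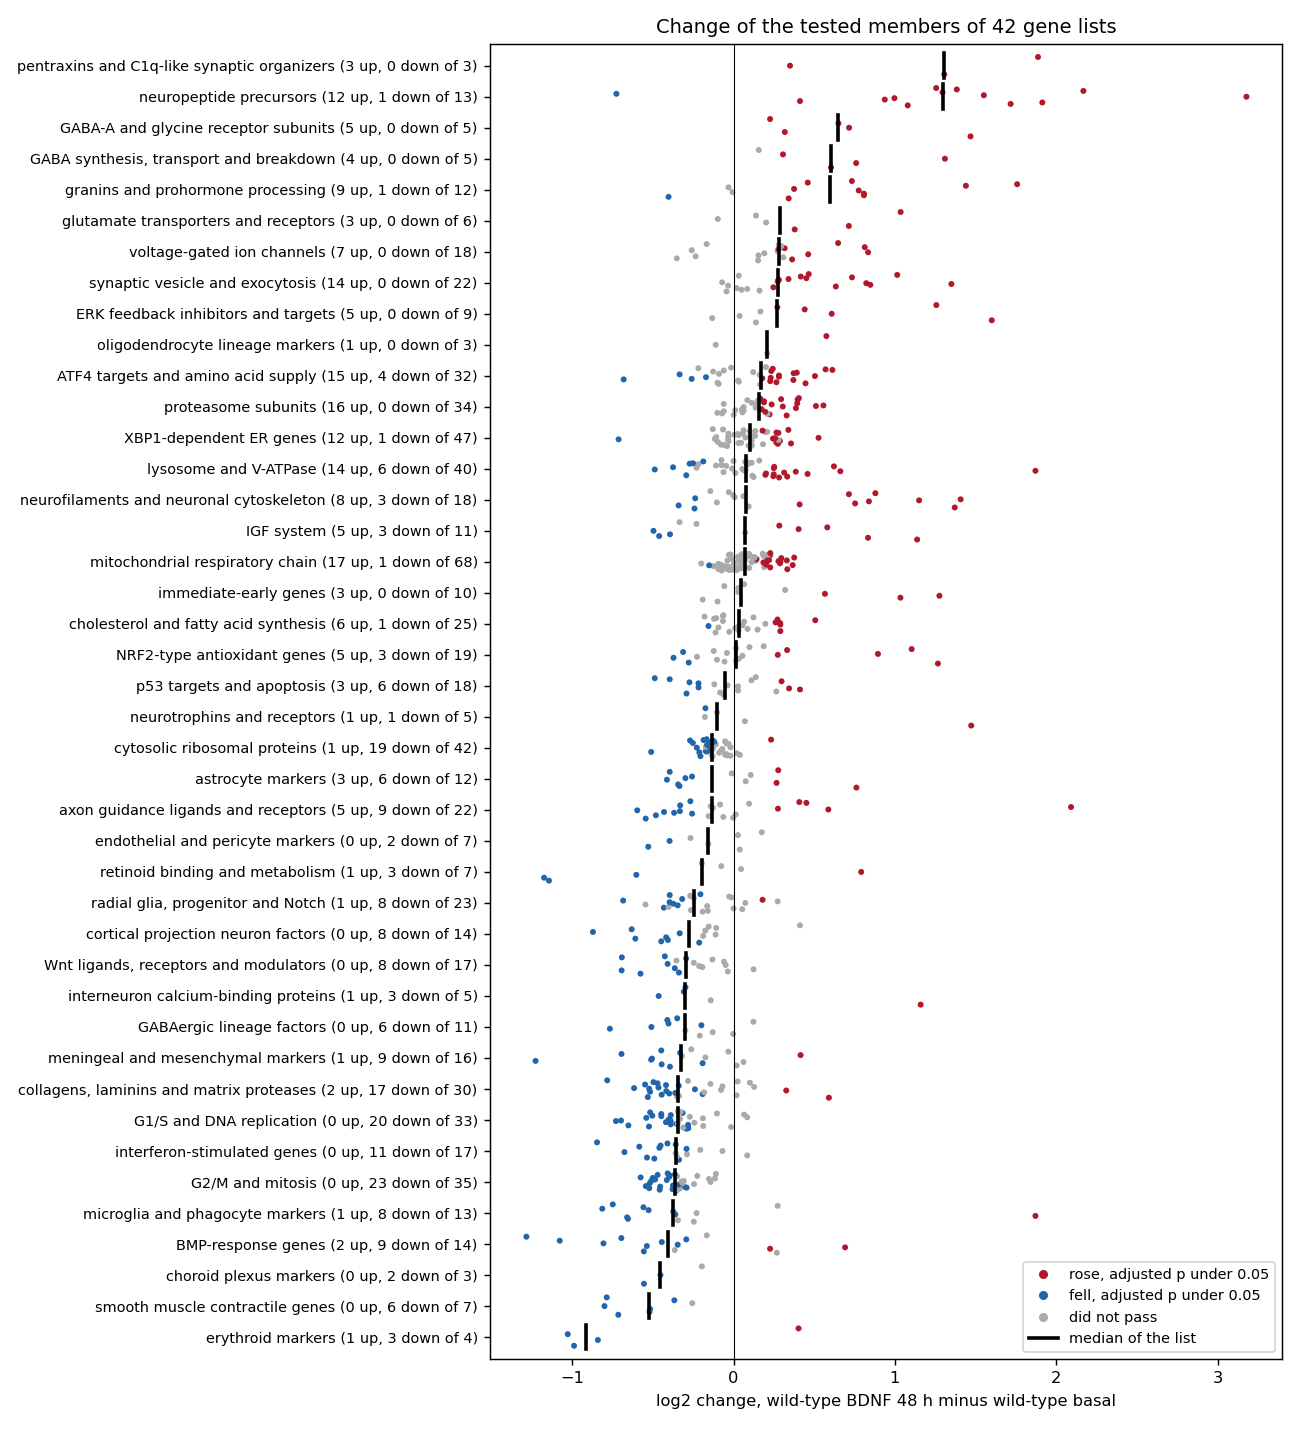
Log2 change (48 h minus basal) of every tested member of 42 gene lists, ordered by the list's median (black bar); red members rose, blue members fell and grey members did not pass, with the counts beside each name. The pentraxin list, with 3 members, and the neuropeptide list, with 12 of 13 members up, have the highest medians, and the smooth muscle, BMP-response and cell cycle lists lie mainly below 0 after median scaling.

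Genes that respond to bone morphogenetic proteins (BMPs) and genes that bind retinoic acid were among the deepest falls. Of 14 tested BMP-response genes 2 rose and 9 fell (8 falls with 48 h dishes 1 and 2 alone, 8 with dishes 3 to 5 alone, 4 with 3 rises as deposited). Their median was -0.40. Msx2, a homeobox gene induced by BMPs, read -1.74, -1.23, -1.97, -2.68 and -1.47 in the 48 h dishes, against -0.83, -0.41, -0.52, -0.42 and -0.49 in the basal dishes. All 10 dishes lay below the array median and every 48 h dish below every basal dish, with dish 4 the lowest at 48 h, and the change was -1.28 ± 0.16 (adjusted p = 2.39e-07). Id3, an inhibitor of bHLH factors, read 0.89, 0.46, 0.15, 0.20 and 0.27 in the 48 h dishes, against 1.53, 1.22, 1.34, 1.74 and 1.53 in the basal dishes, without overlap and with 48 h dish 1 the nearest to the basal dishes, and changed by -1.08 ± 0.12 (0.474-fold, adjusted p = 1.04e-08). Its relatives Id1, Id2 and Id4 fell by 0.81 ± 0.12, 0.44 ± 0.12 and 0.29 ± 0.06, Msx1 by 0.70 ± 0.13 and the ligand gene Bmp4 by 0.56 ± 0.14. The receptor genes Bmpr2 and Bmpr1a were the members that rose, by 0.69 ± 0.21 and 0.23 ± 0.08, neither of which was called with 48 h dishes 1 and 2 alone.

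Both cellular retinoic acid-binding protein genes fell. Crabp1 read 0.17, -0.47, -0.21, 0.13 and 0.13 in the 48 h dishes, against 1.06, 1.01, 1.44, 0.999 and 0.97 in the basal dishes and changed by -1.14 ± 0.13 (0.453-fold, adjusted p = 5.46e-08). Crabp2 read -0.52, -0.77, -1.15, -1.33 and -1.21 in the 48 h dishes, against 0.42, -0.29, 0.51, -0.20 and 0.45 in the basal dishes and changed by -1.17 ± 0.15 (adjusted p = 2.30e-07). Neither gene's groups overlapped, although basal dishes of Crabp2 spread widely. Of 7 retinoid genes 1 rose and 3 fell (1 up and 2 down with 48 h dishes 1 and 2 alone, 1 and 3 with dishes 3 to 5 alone, 2 and 2 as deposited). The retinoic acid receptor gene Rarg fell by 0.60 ± 0.17, while Rbp4, which carries retinol, rose by 0.79 ± 0.13 (1.73-fold, adjusted p = 2.12e-05). Of 17 Wnt ligands, receptors and modulators 0 rose and 8 fell (3 falls with 48 h dishes 1 and 2 alone, 8 with dishes 3 to 5 alone, 2 with 1 rise as deposited). The median of -0.29 became 0.019 with the values as deposited. Without 48 h dish 3 or basal dish 1, 5 fell. Fzd2, a Wnt receptor, fell by 0.69 ± 0.10 and the ligand gene Wnt7a by 0.69 ± 0.11.

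Many genes of cell division fell relative to the array median. Of 33 genes of G1/S and DNA replication 0 rose and 20 fell, with a median of -0.35, and of 35 genes of G2/M and mitosis 0 rose and 23 fell, with a median of -0.36. Cdk2 and Cdk1, the kinases of the S phase and of mitosis, fell by 0.65 ± 0.13 and 0.53 ± 0.13, the mitotic kinase Plk1 by 0.58 ± 0.11, and Cdc20, an activator of the anaphase-promoting complex, by 0.54 ± 0.11. Mki67 and Pcna, in common use as proliferation markers, did not pass, at -0.12 ± 0.11 and 0.08 ± 0.13. Basal dish 4 had the highest sums of both lists, and without it 16 G1/S and 15 G2/M genes fell. With 48 h dishes 1 and 2 alone 6 and 2 fell, with dishes 3 to 5 alone 20 and 23, and with the values as deposited 1 and 0. Of 23 radial glia, progenitor and Notch genes 1 rose and 8 fell (0 up and 2 down with 48 h dishes 1 and 2 alone, 1 and 6 with dishes 3 to 5 alone, 5 and 1 as deposited). The median was -0.25 (0.067 as deposited). Prom1, a membrane protein of neural stem cells, fell by 0.68 ± 0.10 (adjusted p = 2.98e-06), while Sox2 and Fabp7, which mark radial glia, did not pass, at -0.03 ± 0.08 and 0.05 ± 0.08.

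Genes of non-neuronal cells were lower at 48 h in several lists. Of 7 smooth muscle contractile genes 6 fell (7 falls with 48 h dishes 1 and 2 alone, 6 with dishes 3 to 5 alone, 3 with 0 rises as deposited). The summed signal was 72.3 to 84.5 in 48 h dishes, against 115 to 128 in basal dishes. Acta2, the smooth muscle actin, fell by 0.71 ± 0.07 (0.609-fold, adjusted p = 1.77e-09), and Myl9 and Tpm2, of the same filaments, by 0.80 ± 0.11 and 0.79 ± 0.10, while the defining genes Myh11, Cnn1 and Des lay below the filter. Of 30 collagens, laminins and matrix proteases 2 rose and 17 fell (12 falls with 48 h dishes 1 and 2 alone, 19 with dishes 3 to 5 alone, 1 with 6 rises as deposited). The falls included fibronectin (Fn1, -0.47 ± 0.06), Sparc (-0.50 ± 0.08) and the protease inhibitor Timp3 (-0.78 ± 0.12). Of the dimmer Timp3 probe sets the one at -0.92 passed, and those at -0.16 and 0.33 did not. Eln, which encodes elastin, read -1.38, -1.16, -1.26, -1.44 and -1.27 in the 48 h dishes, against -0.37, -0.32, -0.25, -0.20 and -0.76 in the basal dishes, without overlap, a change of -0.92 ± 0.17 (adjusted p = 0.000122). Meningeal and mesenchymal markers fell in 9 of 16 and rose in 1 (8 falls with 48 h dishes 1 and 2 alone, 9 with dishes 3 to 5 alone, 2 with 2 rises as deposited). Their sums were 112 to 128 in 48 h dishes, against 135 to 162 in basal dishes. Egfl6, a secreted matrix ligand among them, lay below the array median on all 10 arrays and changed by -1.23 ± 0.15 (adjusted p = 1.69e-07). Other falls of this kind were Col14a1 (-0.91 ± 0.08), Emilin1 (-0.90 ± 0.12, not called when its probe sets were averaged), the prostacyclin synthase Ptgis (-0.91 ± 0.11) and the sialyltransferase St6gal1 (-0.90 ± 0.10).

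Blood cell and phagocyte genes were lower as well. The embryonic globin gene Hbb-y read 5.08, 5.09, 5.55, 4.67 and 5.13 in the 48 h dishes, against 6.36, 6.33, 6.49, 5.63 and 5.85 in the basal dishes, without overlap, and changed by -1.03 ± 0.19 (0.49-fold, adjusted p = 0.000112), while Hba-x and Hbb-bh1 fell by 0.99 ± 0.24 and 0.84 ± 0.24. The calls of Hba-x and Hbb-bh1 were lost with 48 h dishes 1 and 2 alone, and the defining erythroid genes Gata1, Klf1 and Alas2 lay below the filter. Of 4 tested erythroid markers 1 rose and 3 fell (1 fall with 48 h dishes 1 and 2 alone, 3 with dishes 3 to 5 alone, 2 with 1 rise as deposited). The transferrin receptor gene Tfrc, of the same list, rose by 0.40 ± 0.07. Of 13 tested microglia and phagocyte genes 1 rose and 8 fell (8 falls with 48 h dishes 1 and 2 alone, 7 with dishes 3 to 5 alone, 2 with 1 rise as deposited). The sums were 20.6 to 28.7 in 48 h dishes, against 29.4 to 34.9 in basal dishes, and 48 h dish 1 had the lowest sum. With the Gapdh covariate 3 of them fell. Csf1r, the receptor microglia need, fell by 0.36 ± 0.11 and the adaptor Tyrobp by 0.75 ± 0.17. Cd68, a lysosomal membrane protein used as a phagocyte marker, was the member that rose. It read 0.54, 0.94, 1.16, 1.06 and 1.23 in the 48 h dishes, against -0.46, -0.66, -0.78, -1.56 and -0.96 in the basal dishes, all 48 h dishes above all basal dishes, and changed by 1.87 ± 0.19 (3.66-fold, adjusted p = 2.57e-09). Of 17 interferon-stimulated genes 0 rose and 11 fell (7 falls with 48 h dishes 1 and 2 alone, 9 with dishes 3 to 5 alone, 1 with 1 rise as deposited). They were led by Usp18, which dampens interferon signalling (-0.85 ± 0.13), Ifit1 (-0.68 ± 0.13) and Irf1 (-0.58 ± 0.12), with B2m of the class I complex at -0.34 ± 0.06. Astrocyte markers showed 3 rises and 6 falls among 12 (1 up and 0 down with 48 h dishes 1 and 2 alone, 3 and 2 with dishes 3 to 5 alone, 5 and 0 as deposited). Without basal dish 2 there was 1 fall, and the sums overlapped at 111 to 122 in 48 h dishes, against 113 to 131 in basal dishes. The part of these cell type markers in the other changes was not tested.

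**Figure D3:**
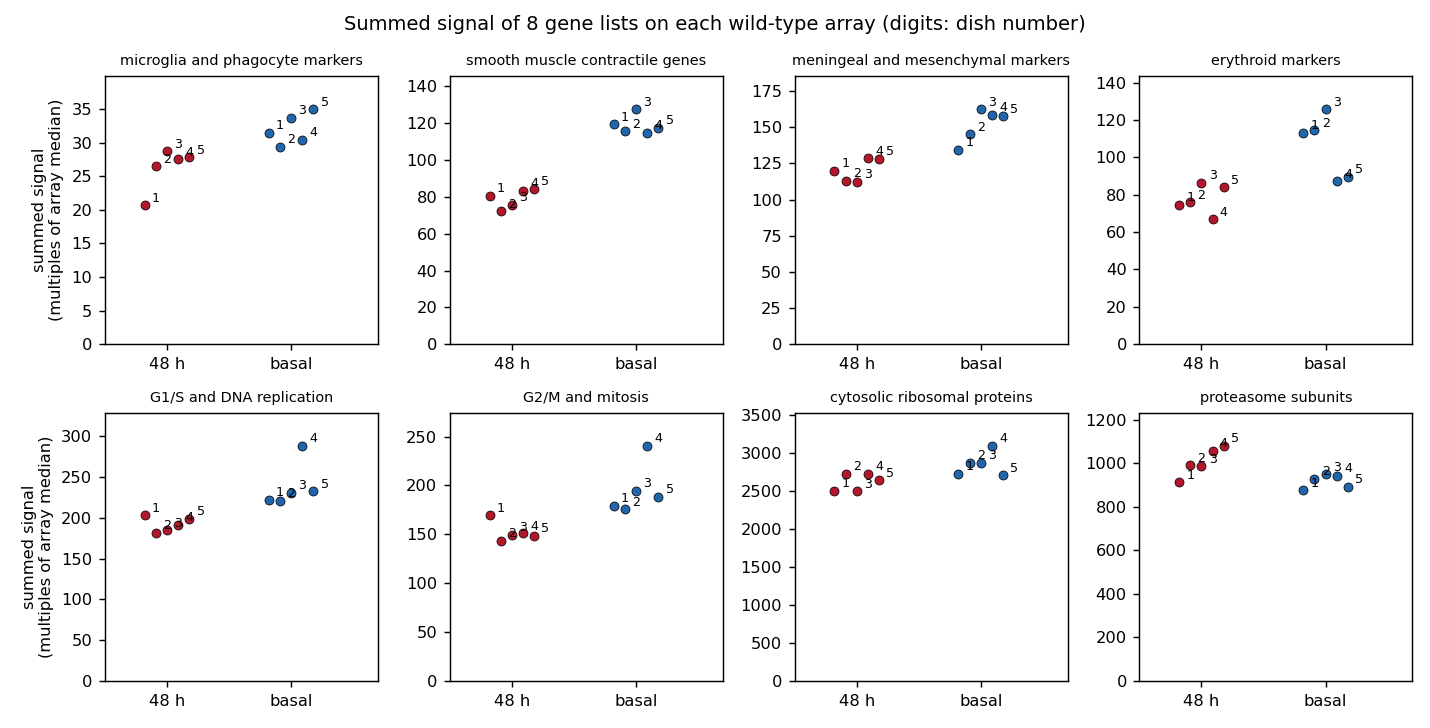
Summed signal of 8 gene lists in multiples of the array median (vertical axis from 0) on each wild-type 48 h array (red, left) and basal array (blue, right), with dish numbers. The sums of the first 6 lists do not overlap between groups, with basal dish 4 the highest in both cell cycle lists, and those of the ribosomal proteins and proteasome subunits overlap.

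Housekeeping groups shifted by small amounts. Of 34 proteasome subunits 16 rose and 0 fell, with a median of 0.16, but 1 rose with 48 h dishes 1 and 2 alone, 18 with dishes 3 to 5 alone and 6 with the Gapdh covariate. Psmc5 and Psmc4, ATPases of its cap, rose by 0.56 ± 0.10 and 0.51 ± 0.12. Of 68 respiratory chain genes 17 rose and 1 fell, with a median of 0.07 (1 rise with 48 h dishes 1 and 2 alone, 22 with dishes 3 to 5 alone). The share of that list that rose (17 of 68) was near the 20.5% of all tested genes. Of 42 cytosolic ribosomal proteins 1 rose and 19 fell (6 falls with 48 h dishes 1 and 2 alone, 15 with dishes 3 to 5 alone, 0 with 20 rises as deposited). The list had a median of -0.13 that became 0.182 with the values as deposited, and without 48 h dish 3 or basal dish 4, 8 fell. With the Gapdh covariate 4 ribosomal protein genes fell and 6 respiratory chain genes rose. Leaving out 1 dish brought the respiratory chain rises down to 10 (48 h dish 4) or 11 (48 h dish 5 or basal dish 1). Of 32 genes of the ATF4 response and amino acid supply 15 rose and 4 fell (2 rises with 48 h dishes 1 and 2 alone, 16 with dishes 3 to 5 alone). The risers included the amino acid transporter Slc7a5 (0.57 ± 0.11), asparagine synthetase (Asns, 0.45 ± 0.09) and Ddit3, the CHOP gene (0.37 ± 0.10). Ddit4 had the largest change of these genes and fell by 0.68. Its call was lost with the values as deposited, with 48 h dishes 3 to 5 alone and without 48 h dish 2. Of 47 endoplasmic reticulum genes that depend on XBP1 12 rose and 1 fell (3 rises with 48 h dishes 1 and 2 alone, 17 with dishes 3 to 5 alone), a share near the 20.5% of all tested genes that rose. Kdelr3, a receptor that returns proteins to the endoplasmic reticulum, showed the largest change of that list and fell by 0.71 ± 0.11. Xbp1 itself rose by 0.21 ± 0.06 (adjusted p = 0.00674). That call was lost with 48 h dishes 1 and 2 alone, with the Gapdh covariate and with probe sets averaged (0.113). The dimmer Xbp1 probe sets were at 0.22, 0.12 and -0.10, and none passed. The Gapdh covariate left 6 rises in the ATF4 list and 2 in the XBP1 list. Lysosomal and V-ATPase genes rose in 14 of 40 and fell in 6, and the risers included 9 subunits of the proton pump, led by Atp6v1h at 0.66 ± 0.08. In that list the counts moved to 6 rises with the Gapdh covariate (4 up and 3 down with 48 h dishes 1 and 2 alone, 16 and 4 with dishes 3 to 5 alone, 29 and 0 as deposited).

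Of 11 genes of the IGF system 5 rose and 3 fell (3 up and 2 down with 48 h dishes 1 and 2 alone, 5 and 4 with dishes 3 to 5 alone, 6 and 0 as deposited). The growth factor gene Igf1 rose by 0.83 ± 0.07 and the receptor gene Igf1r fell by 0.46 ± 0.16. Of 25 genes of cholesterol and fatty acid synthesis 6 rose and 1 fell (1 up and 0 down with 48 h dishes 1 and 2 alone, 6 and 1 with dishes 3 to 5 alone, 20 and 0 as deposited). Pmvk, a kinase of the mevalonate pathway, was at 0.51 ± 0.07. The median of 0.03 turned negative under quantile and 75th percentile scaling. Of 18 p53 targets and apoptosis genes 3 rose and 6 fell (0 up and 2 down with 48 h dishes 1 and 2 alone, 4 and 5 with dishes 3 to 5 alone, 9 and 0 as deposited). Without 48 h dish 5, 0 of them rose. Choroid plexus, endothelial and oligodendrocyte lists had 3, 7 and 3 tested members, of which 2 fell, 2 fell and 1 rose, and as deposited 0 of any of the 3 lists fell. Outside the lists, the largest falls included Ldb2, a cofactor of LIM homeobox factors (-0.95 ± 0.10), the ribonuclease Rnase4 (-0.92 ± 0.12), the cobalamin carrier Tcn2 (-0.86 ± 0.16), the potassium channel subunit Kcne4 (-0.88 ± 0.16), the guanylate-binding protein gene Gbp2b (-0.87 ± 0.10), the mutarotase Galm (-0.90 ± 0.18), the transporter Abcb8 (-0.86 ± 0.21) and 1600014C10Rik (-1.07 ± 0.14). Abcb8 did not pass when its probe sets were averaged (-0.20) or under the Gapdh covariate. Its dimmer probe set was at 0.45 and did not pass. Neurod2, a factor of maturing cortical neurons, fell by 0.87 ± 0.27, a call lost without 48 h dish 5 and without basal dish 1, which read 1.92 against 1.08 to 1.28 in the other basal dishes.

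**Figure D4:**
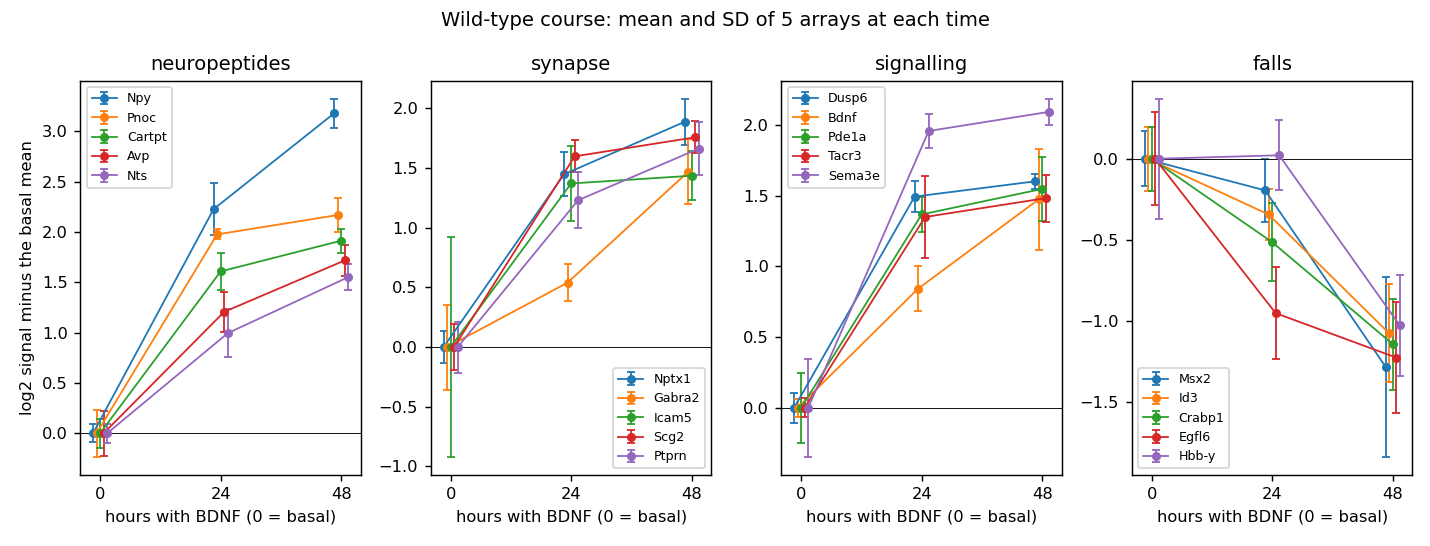
Course of 20 genes in wild-type dishes: log2 signal minus the basal mean (vertical axis) at 0 (basal), 24 and 48 h with BDNF, as mean and SD of 5 arrays. All 20 were chosen by their 48 h values. Gabra2, Bdnf and Npy are higher at 48 h than at 24 h, while Sema3e, Dusp6 and Scg2 stay near their 24 h level. Hbb-y is at its basal level at 24 h.

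The 24 h dishes, lysed on the same day as the basal dishes, show which of these changes were already present without the additional day in culture. The 24 h and 48 h comparisons share the basal dishes, so their values are given side by side. The 25 rises and 20 falls were chosen by their 48 h values, which favours 48 h levels further from basal than 24 h levels. Against basal, 598 genes (8.04%) were called higher and 476 (6.4%) lower at 24 h. All 25 of the largest 48 h rises were also called higher at 24 h. Scg2, Dusp6, Sema3e and Calb1 stood at 24 h at 1.60, 1.49, 1.96 and 1.12, and the direct tests of 48 h against 24 h gave differences of 0.16, 0.11, 0.14 and 0.04, none of which passed. The direct test called 619 genes (8.32%) higher and 415 (5.58%) lower at 48 h. Of the 25 largest rises 13 were higher at 48 h than at 24 h, such as Qpct (1.02, adjusted p = 4.25e-05), Npy (0.95, adjusted p = 1.08e-06), Gabra2 (0.93, adjusted p = 0.000632) and Bdnf (0.63, adjusted p = 0.00277). Glrb and Aldh1l1, a folate enzyme of astrocytes, were not called at 24 h, at -0.09 and -0.24, and were higher at 48 h than at 24 h by 0.74 and 1.01. The reverse held for Egr1, Dlk1 (a Notch-like membrane protein) and Akr1b8, which were lower at 48 h than at 24 h by 0.32, 0.50 and 0.29, with adjusted p = 0.0124, 0.0108 and 0.0199.

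Of the 20 largest falls, likewise chosen by their 48 h values, 10 were called lower at 24 h and 15 were lower at 48 h than at 24 h. Msx2 was at -0.19 at 24 h and fell by 1.09 at 48 h relative to 24 h (adjusted p = 7.88e-05), and Hbb-y was at 0.02 at 24 h and fell by 1.05 at 48 h relative to 24 h (adjusted p = 0.000725). Egfl6, Rnase4 and St6gal1 were instead near their 48 h change at 24 h, with -0.95, -0.74 and -0.74 at 24 h and -1.23, -0.92 and -0.90 at 48 h, and their 48 h and 24 h values were not called different by the direct test. The number of genes that differed between 48 h and 24 h was 150 with 48 h dishes 1 and 2 alone, 1538 with dishes 3 to 5 alone and 594 without dish 3.

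**Figure D5:**
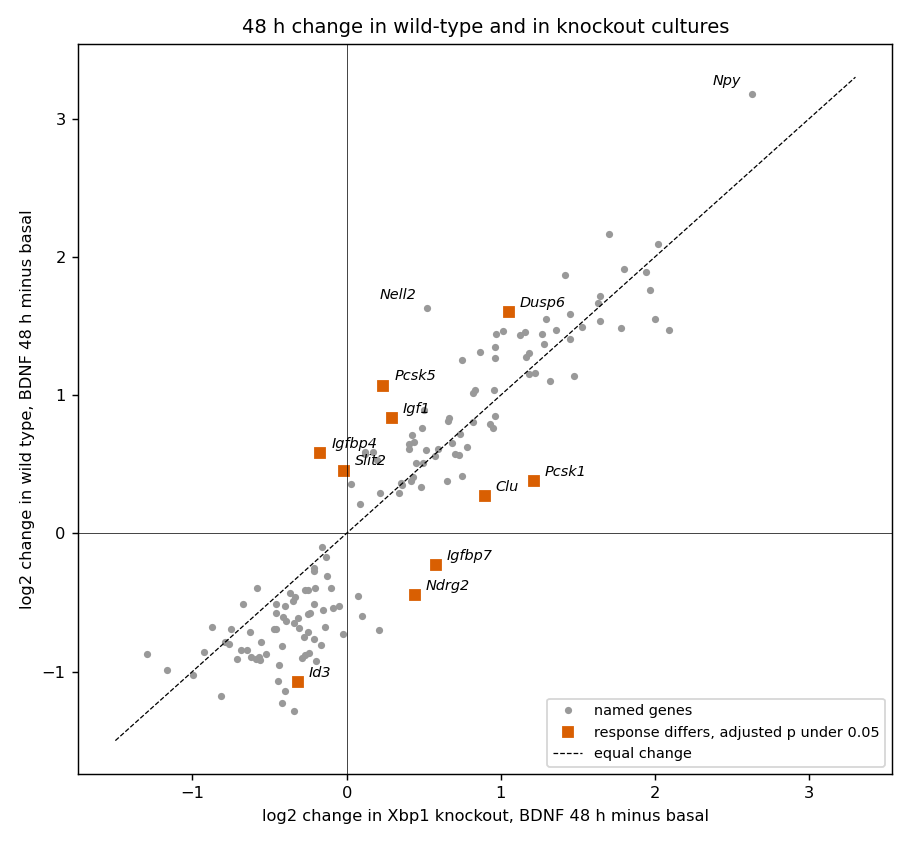
Log2 change at 48 h in wild-type cultures (vertical axis) against that in Xbp1 knockout cultures (horizontal axis) for the named genes (grey) and the 10 genes whose response differed between genotypes (orange squares); the broken line marks equal change. Most named genes lie near the line, Pcsk5, Igfbp4, Igf1 and Dusp6 lie above it and Pcsk1, Clu, Igfbp7 and Ndrg2 below it.

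Each genotype was 1 pool of embryos divided over dishes, 4 embryos for wild type and 6 for the knockout, so genotype and pool cannot be told apart in what follows. Most of the largest wild-type changes were also called in Xbp1 knockout dishes, where 1443 genes (19.4%) rose and 704 (9.47%) fell at 48 h. Of the 25 largest wild-type rises 24 were called in the knockout, Nell2 being the exception at 0.52, and of the 20 largest falls 15 were. Npy changed by 3.18 in wild-type dishes, against 2.63 in knockout dishes, and Bdnf by 1.47 and 2.09 in the same order, without a called difference in response. The test of the difference itself called 10 genes (0.134%), and 515 had an unadjusted p under 0.05. Igf1, the insulin-like growth factor, changed by 0.83 ± 0.07 in wild type and 0.29 in the knockout (difference 0.54 ± 0.10, adjusted p = 0.0163). Dusp6 changed by 1.60 and 1.05 (difference 0.55 ± 0.11, adjusted p = 0.0417), Igfbp4, an IGF-binding protein, by 0.58 and -0.17 (difference 0.75 ± 0.15, adjusted p = 0.0354), and Id3 by -1.08 and -0.32 (difference -0.76 ± 0.16, adjusted p = 0.0478). The other 6 fall outside the rule by which genes were named and are given after their values were seen. The convertase gene Pcsk5 changed by 1.07 in wild-type dishes, against 0.24 in knockout dishes, and the guidance ligand gene Slit2 by 0.45 and -0.02. Clusterin (Clu), the convertase gene Pcsk1, Igfbp7 and Ndrg2 changed by 0.27, 0.38, -0.23 and -0.45 in wild type, against 0.90, 1.22, 0.58 and 0.44 in the knockout. The count of 10 fell to 1 with 48 h dishes 1 and 2 alone, 5 with dishes 3 to 5 alone and 0 with the values as deposited, and to 2 without wild-type basal dish 1, 3 or 5, without knockout 48 h dish 1 or without knockout basal dish 3 or 4. Of the cell cycle lists, 20 of 33 G1/S and 23 of 35 G2/M genes fell in wild type, against 3 and 3 in the knockout, and 0 members of either list were called in the test of the difference.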

How the data were processed

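RNA of 30 culture dishes was labelled after 2 rounds of amplification and read on 1-colour Affymetrix arrays, 1 array a dish. The deposited intensities, 1 per probe set, were made by the authors with MAS5, per the submitters' processing notes, and their scaling was not given in the sources used here. Each array was divided by its median (81.9 to 138 over 30 arrays), values were floored at 0.1 of the median and log2 values were taken. Of 22690 probe sets 20393 had 1 gene symbol, and the brightest probe set stood for each of 12394 genes. The 7436 genes in the brightest 60% were tested. limma 3.58.1 (R 4.3.3) fitted 6 groups over 30 arrays with an intensity trend, with Benjamini-Hochberg adjustment over all tested genes. Tested on simulated data for the 48 h against basal comparison over 7436 genes, the fit recovered 46% of 1.25-fold, 84% of 1.5-fold, 98% of 2-fold and 100% of 3-fold changes. It gave 5 false calls. Only 50 genes were changed at each fold and the simulated dishes varied independently, unlike the data, so recovery in the data may differ.

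Genes were named by a rule. It took the 25 largest rises and 20 largest falls among called genes whose 48 h and basal dishes did not overlap. It added up to 3 genes per list, and Xbp1, Bdnf and Ntrk2. Other members were named after their values were seen. Members and lists were chosen with earlier results of these data known. Alternatives were other scalings, floors, filters, probe set rules, designs, subsets of dishes and a Gapdh covariate. The number of arrays limits the precision.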

Additional observations from a re-analysis of the deposited data

Results flagged for a closer look

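Among 294 groups of 5 dishes of named genes, 16 held a dish far from the others by Dixon's criterion, which chance gives in about 1 group in 20. In basal dish 1, Msx2 read -0.83 (others -0.52 to -0.41), Ldb2 2.24 (others 2.66 to 2.69), Neurod2 1.92 (others 1.08 to 1.28) and Ntrk2 2.08 (others 2.39 to 2.48). Ms4a6b read 0.33 in basal dish 2 (others -0.18 to -0.07) and Crabp1 1.44 in basal dish 3 (others 0.97 to 1.06). In basal dish 4, Icam5 read -2.24 (others -0.47 to 0.18), Neurog2 2.59 (others 1.98 to 2.14), Axin2 1.54 (others 0.95 to 1.12) and Slc7a5 2.33 (others 1.77 to 1.92). In basal dish 5, Nefm read 1.62 (others 1.89 to 2), Ntn1 0.16 (others -0.31 to -0.18) and Irf1 0.89 (others 1.15 to 1.23). At 48 h, Tcn2 read -0.95 in dish 1 (others -0.23 to 0.02), Igf1 3.24 in dish 1 (others 3.53 to 3.62) and Kcna1 1.92 in dish 4 (others 1.51 to 1.58).

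The 48 h response differed between wild type and knockout by the test of the difference in 10 genes. The wild-type change was above the knockout change by 0.83 for Pcsk5, 0.75 for Igfbp4, 0.55 for Dusp6, 0.54 for Igf1 and 0.47 for Slit2 on the log2 scale. The wild-type minus knockout difference was -0.63 for Clu, -0.76 for Id3, -0.81 for Igfbp7, -0.84 for Pcsk1 and -0.89 for Ndrg2.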

How the results depend on the processing

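The 2693 genes that changed at 48 h against basal became 4378 with the values as deposited, 1014 with 48 h dishes 1 and 2 alone, 1478 once the Gapdh ratio was a covariate and 1686 at an adjusted p under 0.01, and ranged from 2190 to 2888 on leaving out 1 dish. The 1034 genes that differed between 48 h and 24 h became 4587 with the values as deposited, 1677 with array weights, 150 with 48 h dishes 1 and 2 alone, 297 with the Gapdh covariate and 409 at an adjusted p under 0.01, and ranged from 594 (without 48 h dish 3) to 1348. The 10 genes whose response differed between genotypes became 0 with the values as deposited, 5 without the filter, 3 with a stricter filter, 4 with the mean of probe sets, 4 without the intensity trend, 33 with array weights, 1 with 48 h dishes 1 and 2 alone, 5 with dishes 3 to 5 alone and 1 at an adjusted p under 0.01, and ranged from 2 to 13 on leaving out 1 dish. With the values as deposited Ncald (0.004), Sort1 (0.138), Rps6 (0.043) and Rps26 (0.06) turned positive, and with the mean of probe sets Cox8a was at -0.02. The causes were not tested. Of 147 named genes 92 kept their call in every alternative that tested them. Replicate numbers did not pair the dishes: same-numbered dishes correlated at 0.18, 0.04, 0.02, -0.09 and 0.05 in their deviations, and the replicate block gave 2849, 1246 and 12 genes. Signal near background limits the genes below the filter.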
